A study of Homo sapiens with 8 samples.

Results

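The genes examined were the human gene models that span at least 500 kb, measured in nascent RNA from 2 colorectal cancer cell lines. They were chosen by length alone from the deposited tables, leaving out chromosomes 20, X and Y and 9 genes set aside by name. Of 18638 gene models, 257 reached 500 kb, and 230 of these (1.23% of all models) were kept. They covered 15.9% of the summed span of all models. Their lengths ran from 501.206 kb to 2.30 Mb with a median of 700.2 kb, against 23.6 kb over all models, and 45 of them reached 1 Mb. They lay on 20 chromosomes, with 28 on chromosome 3 and 21 on chromosome 7. The median GC content of their gene bodies was 38.0%, against 45.1% over all models.

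RNA polymerase II needs hours to cross a gene of this size, and most of what it makes there is intron. Topoisomerases relieve the torsion that builds up around the moving enzyme, TOP2A mainly in dividing cells and TOP2B in dividing and resting cells alike. Genes of this length are best known from the nervous system, where many encode adhesion molecules, channels and synaptic scaffolds, while a smaller set works in most cell types in trafficking, polarity and signalling.

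Factory-seq isolates RNA held at sites of transcription in lysed nuclei, and 8 libraries were available, 2 for each of 4 groups. DLD-1 cells carried a degron with a fluorescent tag (mAID-mClover) on POLR2A, the gene of the RNA polymerase II subunit RPB1, with inducible Tet-OsTIR1, and were untreated or had auxin. HCT116 cells carried the degron on TOP2A and were either TOP2A-mAID controls or labelled TOP2B-/- TOP2A-mAID. The protocol gives doxycycline for 24 h to induce TIR1, then 500 µM auxin for 14 h. The labels disagree on whether the TOP2B-/- group had auxin, so genotype and auxin cannot be told apart there. The DLD-1 cells are a single engineered line. The HCT116 groups differ in genotype, with a single engineered derivative each, so genotype cannot be told apart from other differences between those derivatives. The titles of all 8 libraries read async (asynchronous), and beyond that word it is not given whether cells were sorted for G1. Whether untreated cells had doxycycline and whether replicates were separate cultures is not given either. The p-values therefore measure only the spread between these libraries.

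Total counts were 10739622 to 62626875 in DLD-1, lowest after auxin, and 32129400 to 36491540 in HCT116. Models that were silent in the other line gave a background density. Extended to all models it made up 2.22% and 8.97% of all counts in the 2 DLD-1 controls, then 39.4% and 59.2% after auxin. In HCT116 it was 1.79% and 0.275% in the controls against 1.26% and 3.04% in the TOP2B-/- libraries, so control 2 stood apart. Levels are given as RPKM, reads per counted kb scaled to the total count of the library, or as multiples of the library's own background density. Libraries are bulk RNA, so fewer transcribing cells and less RNA per cell cannot be told apart. The epithelial genes EPCAM, CDH1, KRT8, KRT18, KRT19 and CDX2 were at 42.2 times background or more in all 4 control libraries, and 16 of 22 colon markers in DLD-1 and 6 of 22 in HCT116 (the same 6) reached 2 times background in both controls. Of 18 neuron markers 3 did in DLD-1 (TUBB3, GAD1 and NEFM) and 5 in HCT116 (TUBB3, GAD1, SYP, SLC17A7 and ELAVL3), with TUBB3 at 371 and 3026 times background in the HCT116 controls. Among the others GAP43, STMN2 and RBFOX3 were at 0 to 1.68 times background in the controls. Of 11 fibroblast markers 0 and 1 did, and of 11 leukocyte markers 1 and 4. TOP2B RNA had 187.9 and 186.3 CPM (counts scaled to the library total, with no length) in the HCT116 controls against 134 and 134.2 in the TOP2B-/- libraries (log2 fold change -0.50, SE 0.041, edgeR adjusted p 0.0269), so its RNA was lower but present. POLR2A RNA had 217.9 and 148.9 CPM in the DLD-1 controls against 193.7 and 138.4 after auxin, which overlapped and were not called by edgeR with TMM scaling (log2 fold change -0.78, adjusted p 0.0773).

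Most of the very long genes carried few reads above background. At least 2 times background in both libraries was reached by 64 of the 230 in DLD-1 controls (61.1% of all models did) and by 84 in HCT116 controls (70.6% of all models). Both lines shared 56 of these genes, 8 reached it in DLD-1 only, 28 in HCT116 only and 138 in neither. With a limit of 3 times background the numbers were 56 and 71. The share above background fell with length among the genes themselves. In DLD-1 it was 46 of 132 from 500 to 750 kb, 18 of 98 from 750 kb and 5 of 45 from 1 Mb, and in HCT116 it was 60, 24 and 6 of the same classes.

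Promoter sequence was set beside this division. Of the 230, 193 were matched to RefSeq promoters (GRCh38.p14), and for 96 that window held the start of the deposited gene model. In the 250 bases before the RefSeq start, the dinucleotide CG (the same on both strands) was counted. The median was 17.5 per promoter for the long genes and 18 over all 11244 models matched in the same way. All models had 5 or fewer CG in 20.4% of promoters and the long genes in 14.6%. Long genes above background in both lines had a median of 27.5 (28 promoters). Those above background in neither line had a median of 15 (55 promoters), with 5 or fewer in 18.2%. For shorter models above background in neither line the median was 5, with 5 or fewer in 53.9% (2679 promoters). This is a description of letters in a window and was not tested.

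One promoter from each class is shown, 5′ to 3′ in the direction of the gene, with CG in capitals. FBXL17 was above background in both lines and has 35 CG, ANK3 in DLD-1 only with 14, PDE4B in HCT116 only with 17, and EYS in neither line with 0. The medians of these classes were 27.5, 20, 17 and 15 (28, 4, 9 and 55 promoters), so EYS is not typical of its class.
FBXL17, chr5:108382099-108382348, minus strand: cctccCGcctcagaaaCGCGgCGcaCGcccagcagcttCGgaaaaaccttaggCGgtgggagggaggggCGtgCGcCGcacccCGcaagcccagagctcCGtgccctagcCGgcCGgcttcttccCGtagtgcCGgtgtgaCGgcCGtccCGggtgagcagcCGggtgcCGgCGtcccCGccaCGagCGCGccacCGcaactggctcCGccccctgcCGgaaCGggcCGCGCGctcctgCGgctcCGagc
ANK3, chr10:60733529-60733778, minus strand: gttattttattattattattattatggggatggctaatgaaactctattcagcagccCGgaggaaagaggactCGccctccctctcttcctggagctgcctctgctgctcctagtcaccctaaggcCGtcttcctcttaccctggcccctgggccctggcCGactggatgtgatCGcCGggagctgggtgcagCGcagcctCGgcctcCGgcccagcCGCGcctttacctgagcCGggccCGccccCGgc
PDE4B, chr1:65792260-65792509, plus strand: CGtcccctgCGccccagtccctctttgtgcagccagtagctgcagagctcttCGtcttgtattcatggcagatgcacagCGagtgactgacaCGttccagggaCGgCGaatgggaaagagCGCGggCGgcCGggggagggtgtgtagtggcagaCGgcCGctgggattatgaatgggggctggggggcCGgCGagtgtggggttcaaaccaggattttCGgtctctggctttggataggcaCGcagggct
EYS, chr6:65707227-65707476, minus strand: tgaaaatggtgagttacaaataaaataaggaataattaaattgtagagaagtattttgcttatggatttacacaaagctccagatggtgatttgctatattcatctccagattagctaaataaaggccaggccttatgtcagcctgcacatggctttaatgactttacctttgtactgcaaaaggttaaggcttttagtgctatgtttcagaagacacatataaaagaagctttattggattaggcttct

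The 8 libraries differed in how far the upper part of the long genes stood above background. Their upper quartile was 7.34 and 2.42 times background in the DLD-1 controls against 1.40 and 1.33 after auxin, so the auxin libraries lay below both controls. In HCT116 it was 7.76 and 40.7 in the controls against 13.1 and 6.10 in the TOP2B-/- libraries, so the groups overlapped. Genes at 10 times background or more numbered 56 and 28 in the DLD-1 controls against 0 in either auxin library. The background was 0.344 and 0.518 RPKM after auxin against 0.0194 and 0.0784 in the controls. Every long gene in the controls lay below 10 times the auxin background, so the count of 0 does not by itself show a fall. The upper quartiles depend on the background in the same way. No share over all models was counted at this limit.

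**Figure D1:**
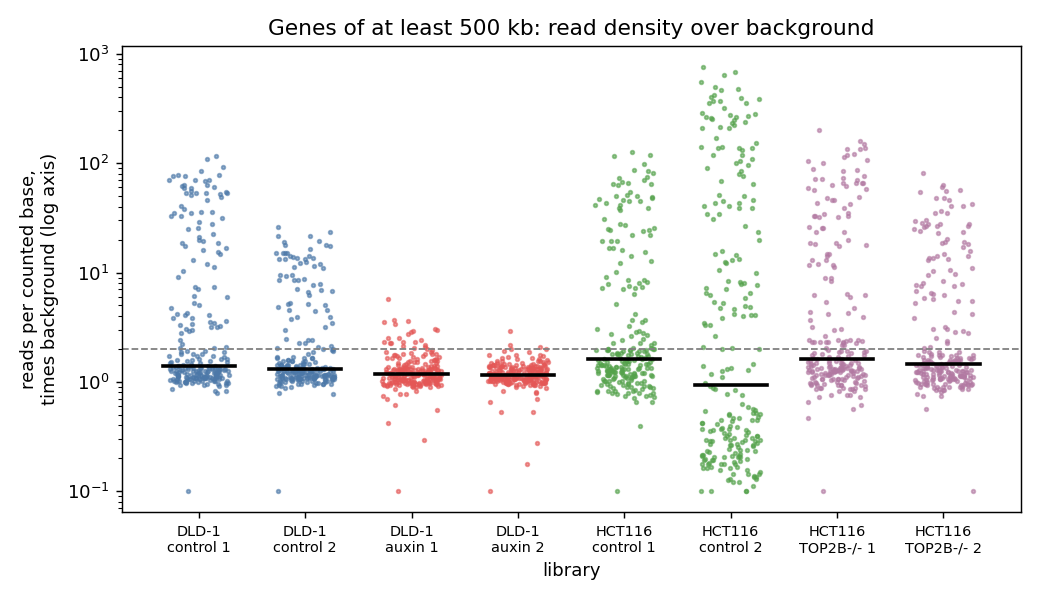
Read density of the 230 genes of at least 500 kb in each of the 8 libraries, as multiples of that library's background density on a log axis (values under 0.1 are drawn at 0.1). Points are genes, black lines are medians and the dashed line is 2 times background. The upper tail reaches 117 times background in DLD-1 control 1 and 5.77 in auxin 1, and in HCT116 control 2 the median is 0.944.

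The list of scaffold, traffic and cytoskeleton genes held the most genes above background. Of its 52 members, 24 were above background in DLD-1 controls and 30 in HCT116 controls. It was also the largest list. Its shares of 46.2% in DLD-1 and 57.7% in HCT116 stood beside 43.5% and 65.2% among signalling enzymes. LRBA (chromosome 4, 150264659 to 151015497, GRCh38), a vesicle trafficking protein, had 2.13 and 2.05 RPKM in the DLD-1 controls against 1.99 and 1.82 in the HCT116 controls. MAB21L2 lies inside LRBA on the opposite strand, and the strand setting of the counting is not given. UTRN, the utrophin that links the cytoskeleton to the membrane, had 1.78 and 1.70 RPKM in DLD-1 and 0.861 and 0.778 in HCT116. MAGI1, a tight junction scaffold, had 1.52 and 1.36 in DLD-1 and 1.81 and 1.53 in HCT116. LPP, a focal adhesion protein, had 1.37 and 1.29 in DLD-1 and 1.34 and 1.13 in HCT116. These genes were above background in both lines, while ANK3, the membrane adaptor ankyrin-G, had 1.22 and 1.19 RPKM in DLD-1 and 0.0228 and 0.0113 in HCT116.

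Signalling enzymes followed. Of 23 kinase, phosphatase and second messenger genes, a list that also holds HS6ST3, HDAC9 and CDKAL1, 10 were above background in DLD-1 controls and 15 in HCT116 controls. PRKCE, a protein kinase C, had 1.01 and 0.892 RPKM in DLD-1 and 0.673 and 0.568 in HCT116. PTPRG, a receptor tyrosine phosphatase, had 0.960 and 0.871 in DLD-1 and 0.644 and 0.563 in HCT116. PDE4B, which breaks down cyclic AMP, had 0.0208 and 0.0836 in DLD-1, at 1.07 times background in both, and 0.0651 and 0.0560 in HCT116, at 4.17 and 23.3 times background.

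Of 17 genes of transcription and RNA binding, 6 were above background in each line. SMYD3, a lysine methyltransferase, had 1.35 and 1.17 RPKM in DLD-1 and 1.15 and 0.945 in HCT116. ZBTB20, a zinc finger repressor, had 0.0796 and 0.156 in DLD-1 and 1.86 and 1.64 in HCT116, where it was among the 6 highest. Of 17 genes of metabolism, repair and protein turnover, 5 were above background in DLD-1 and 7 in HCT116. FBXL17, a subunit of ubiquitin ligases, had 1.49 and 1.5 RPKM in DLD-1 and 0.431 and 0.365 in HCT116. RAD51B, a recombination repair protein, had 1.14 and 1.05 in DLD-1 and 0.778 and 0.644 in HCT116. Of 39 genes on no list, 16 and 19 were above background. They include AGAP1, an Arf GTPase-activating protein among the 6 highest in DLD-1 (2.27 and 1.83 RPKM), FAF1, a ubiquitin-binding protein (1.65 and 1.68), and ADK, adenosine kinase (1.5 and 1.52).

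Adhesion molecules and channels, the classes best known from neurons, were mostly at background. Of 51 adhesion and synapse organiser genes, 3 were above it in DLD-1 (SEMA5A, NRXN3 and ASTN2) and 2 in HCT116 (SORCS2 and ASTN2). SEMA5A, a semaphorin, stood out with 1.52 and 1.41 RPKM in DLD-1, at 77.9 and 18 times background, and with 0.0247 and 0.000429 in HCT116, at 1.58 and 0.178. Of 31 channel, receptor and other membrane genes, 0 were above background in DLD-1 and 5 in HCT116. The highest there was GRID1, a delta-type glutamate receptor, with 0.388 and 0.329 RPKM, at 24.8 and 137 times background, and 0.0245 and 0.0914 RPKM in DLD-1, at 1.26 and 1.17. Among 92 synaptic genes shorter than 500 kb, 17 were above background in DLD-1 and 49 in HCT116. The 3 longest genes were at background in DLD-1. CNTNAP2 (2304.6 kb), a neurexin-family adhesion protein, had 1.2 and 1.23 times background in the controls against 1.19 and 1.24 after auxin. PTPRD (2298.5 kb), a receptor phosphatase, had 0.969 and 0.987, then 0.973 and 1.01. EYS (1987.2 kb), a photoreceptor protein, had 1.17 and 1.2, then 1.19 and 1.22. In these 3 genes control and auxin libraries overlapped on this scale, while their RPKM rose with the background, for CNTNAP2 from 0.0233 and 0.0967 to 0.411 and 0.641.

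Auxin in DLD-1 addresses what becomes of nascent RNA when RPB1 is depleted. The long genes took 3.81% and 4.66% of the counts in the controls but 8.14% and 11.2% after auxin, so the auxin libraries lay above both controls. With 2 libraries against 2 an exact permutation test cannot give a two-sided p below 0.333, so none is claimed. After subtraction of the background density the control libraries gave 3.53% and 3.55% and the auxin libraries 3.23% and 4.48%, and the groups overlapped.

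Of 229 long genes tested in DLD-1, edgeR called 169 higher and 42 lower after auxin, where 67.3% of all tested models were called, 32.2% higher and 35% lower. Their median log2 fold change was 2.41, against -0.06 over all tested models. The pairings of single libraries gave medians of 1.46 to 3.84, while control 2 differed from control 1 by 1.81 and auxin 2 from auxin 1 by 0.51. With library totals in place of TMM, 7544 of 17625 models tested were called higher and 3377 lower. This moved the median of all models to 0.57 and that of the long genes to 3.03, with 176 long genes called higher and 27 lower. With background-subtracted counts, 3833 of 14386 models tested were called higher and 4654 lower. Of the long genes 212 were then tested, and 86 were called higher and 63 lower. Without auxin 1, 11 were called (4 higher, 7 lower), and without auxin 2, 31 were (6 higher, 25 lower), each in the direction it had with all 4 libraries. No share over all models was set beside these counts, so a loss of calls particular to the long genes cannot be read from them. The medians of the long genes in these fits were 2.76 and 2.11. In such a fit the controls alone give the spread and the lone auxin library is assumed to vary like them, with 1 residual degree of freedom, so a lost call does not show a smaller change.

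The long genes were divided by whether they were above background in the controls of the other line. The background of HCT116 was taken from models lowest in the DLD-1 controls, so the limit that divides them is not independent of those controls. Of the 84 long genes above background in HCT116 controls, 37 fell, 30 rose and 17 were not called, with a median log2 fold change of -0.33. Of the 145 others tested, 139 rose and 5 fell, with a median of 2.46. Among tested models outside the long genes, 46.3% fell and 17.7% rose where above background in HCT116 controls. Where such models were not above it, 72.6% rose and 2.95% fell. With background-subtracted counts the 84 long genes had 50 lower and 18 higher of 83 tested and a median of -1.35. The other long genes then had 68 higher and 13 lower of 129 and a median of 3.41. The 137 tested genes above background in neither line, a set chosen in part by its low DLD-1 controls, all rose, with a median of 2.46 and quartiles of 2.41 and 2.53. Shorter models above background in neither line had a median of 2.57 in the same comparison, with 77.8% of those tested called higher. On the scale of their library's background, those 138 long genes had medians of 1.19 and 1.16 in the controls against 1.11 and 1.13 after auxin. With background-subtracted counts 66 of 121 tested were called higher and 8 lower, with a median of 3.56. At such multiples, what subtraction leaves is a small part of the background and scales with it. The background was 0.0194 and 0.0784 RPKM in the controls against 0.344 and 0.518 after auxin, so this rise is not free of it.

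**Figure D2:**
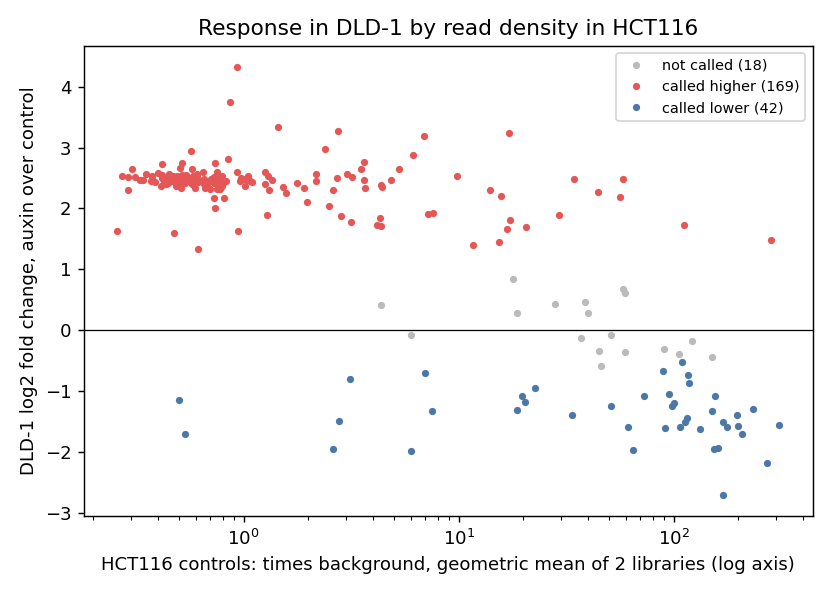
Log2 fold change after auxin in DLD-1 (vertical axis, edgeR with TMM) of the 229 long genes tested against their read density in HCT116 controls as multiples of background (log axis, geometric mean of 2 libraries). Red points were called higher (169), blue points lower (42) and grey points not called (18), and genes with low density in HCT116 lie in a band near 2.46.

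The 6 largest falls were those of AGAP1, MAGI1, PARD3B, FBXL17, PARD3 and ANK3, of which all but AGAP1 and FBXL17 are on the scaffold and traffic list. AGAP1 (chromosome 2, 235494089 to 236131800) had 2.27 and 1.83 RPKM in the controls against 0.451 and 0.534 after auxin, so the groups did not overlap. This was a log2 fold change of -2.71 (SE 0.25, edgeR adjusted p 0.0042), and AGAP1 went from 117 and 23.4 times background to 1.31 and 1.03. MAGI1 (chromosome 3, 65354231 to 66038834) had 1.52 and 1.36 RPKM in the controls against 0.400 and 0.589 after auxin (log2 fold change -2.19, SE 0.26, adjusted p 0.0053). The polarity genes PARD3 and PARD3B fell by 1.96 and 1.99 on the log2 scale. PARD3 (chromosome 10, 34109560 to 34815325) had 60.2 and 14.1 times background in the controls against 1.2 and 0.971 after auxin, and PARD3B (chromosome 2, 204545793 to 205620162) had 63.8 and 15.0, then 1.18 and 1.05. FBXL17 (chromosome 5, 107859033 to 108382098), whose CG-rich promoter is shown above, had 1.49 and 1.5 RPKM in the controls against 0.566 and 0.629 after auxin and fell by 1.96. ANK3 (chromosome 10, 60026298 to 60733526) had 1.22 and 1.19 RPKM, then 0.427 and 0.550, and fell by 1.95. In all 6 genes both auxin libraries lay below both controls, and in the auxin libraries they stood at 0.971 to 1.64 times background. The sizes of these falls therefore depended on the background, and with background-subtracted counts the log2 fold changes ran from -2.54 for FBXL17 to -4.55 for PARD3. Among the 6 largest falls, those of FBXL17, PARD3 and ANK3 were called with either auxin library left out, while AGAP1, MAGI1 and PARD3B missed the threshold without auxin 1 (adjusted p = 0.0502, 0.0510 and 0.0518 by edgeR).

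By role, 17 of 52 scaffold and traffic genes fell and 28 rose. Among signalling enzymes 6 of 23 fell and 14 rose, among transcription genes 5 of 17 fell and 12 rose, and among metabolism and repair genes 5 of 17 fell and 12 rose. Of 51 adhesion genes 50 rose and SEMA5A fell, and of 30 channel and membrane genes tested all 30 rose. These counts stand against 32.2% higher and 35% lower over all models. Among the shorter synaptic genes 77 of 91 rose and 3 fell, with a median of 2.35. With background-subtracted counts fewer were called, with 28 adhesion genes higher and 2 lower of 46, 16 channel genes higher and 1 lower of 28, and 25 shorter synaptic genes higher and 6 lower of 60. Their medians were 3.59, 3.65 and 2.71. Most genes of these lists were near background in the controls, where what subtraction leaves scales with the background. Signalling genes then had 7 higher and 10 lower of 22, with a median of 0.16 in place of 1.90. Scaffold genes had 16 higher and 22 lower of 49, transcription genes 4 and 8 of 17, and metabolism genes 3 and 6 of 14. The medians of these 3 lists were -0.92, -1.62 and -0.98, each of opposite sign to the 1.65, 2.17 and 2.31 without subtraction.

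Few long genes stood above background after auxin. At 2 times background in both auxin libraries there were 4 (27.4% of all models), namely TRPM3, RGS7, FGF12 and SOX6. TRPM3 (chromosome 9, 70535049 to 71121598), a cation channel, had 0.0277 and 0.0873 RPKM in the controls against 1.99 and 1.51 after auxin, with a log2 fold change of 4.32 (SE 0.62, edgeR adjusted p 0.0077). It went from 1.43 and 1.11 to 5.77 and 2.91 times background, so the auxin libraries were higher on both scales. RGS7 (chromosome 1, 240775514 to 241357230), a regulator of G protein signalling, went from 1.35 and 1.15 to 3.69 and 2.16 times background (log2 fold change 3.75, adjusted p 0.0109). With either auxin library left out, neither TRPM3 nor RGS7 passed the threshold (adjusted p = 0.0553 to 0.0853 by edgeR). FGF12, an intracellular modulator of sodium channels, had 3.85 and 1.64 times background in the controls against 3.56 and 2.07 after auxin, so the groups overlapped on that scale, although its log2 fold change in counts was 2.87 (adjusted p 0.0046). SOX6, a transcription factor singled out after its values were seen, had 0.179 and 0.235 RPKM in the controls against 1.25 and 1.04 after auxin, with a log2 fold change of 1.84 (adjusted p 0.0053). On the background scale SOX6 had 9.19 and 3.0, then 3.62 and 2.01, so the groups overlapped. The other largest rises were those of GRM8, a glutamate receptor (3.34), SPOCK1, a proteoglycan (3.27), ST6GALNAC3, a sialyltransferase (3.25), and RIMS2, a presynaptic scaffold (3.19). In the auxin libraries these 4 genes stood at 1.47 to 3.04 times background.

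How many genes stayed above background after auxin was set against length. Of the 64 long genes above background in both DLD-1 controls, 1 (SOX6, 1.56%) was at 2 times background in both auxin libraries. The background itself was 0.344 and 0.518 RPKM after auxin against 0.0194 and 0.0784 in the controls, so the same multiple stood for a higher level there. In auxin 1 alone 12 were (18.8%) and in auxin 2 alone 1 was. Of models from 200 to 500 kb it was 10.1%, of those from 100 to 200 kb 26.0%, from 50 to 100 kb 33.7%, from 20 to 50 kb 44.4% and under 20 kb 54%. The level in controls also fell with length, from a median of 1.51 and 1.47 RPKM under 20 kb to 0.685 and 0.682 in the long genes, and its part in this order was not tested. The limit of 2 times the auxin background lay above those medians of the long genes and below those of models under 20 kb. With a limit of 3 times background the long genes gave 0 of 56 and models under 20 kb 39.2%. For models above background in HCT116 controls, the median log2 fold changes were -0.40 under 20 kb, then -0.71, -0.78, -0.88, -0.81 from 200 to 500 kb and -0.33 in the long genes. With background-subtracted counts they were -0.08, -0.44, -0.70, -1.07, -1.37 and -1.35, so the order with length differed between the 2 kinds of count.

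**Figure D3:**
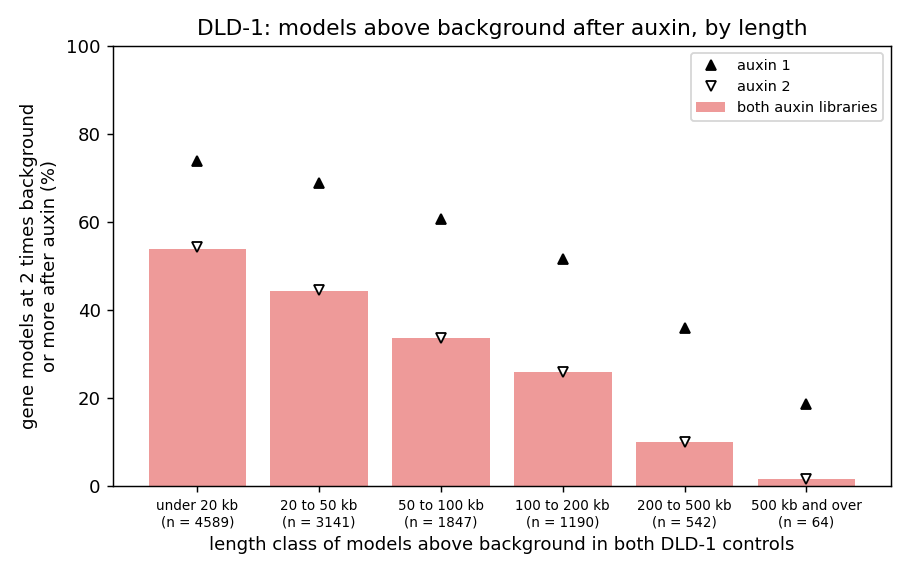
Share of gene models above background in both DLD-1 controls that were at 2 times background or more after auxin, by length class. Bars require both auxin libraries and triangles give each auxin library alone. The bars fall from 54% under 20 kb to 1.56% in the genes of 500 kb and over. The limit stood for a higher level after auxin than in the controls.

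Genes just inside and outside the length limit were SPOCK3 (501.206 kb) and PPFIA2 (501.356 kb), and DIAPH3 (498.397 kb) and CPQ (498.277 kb). SPOCK3 and PPFIA2 were at 0.866 to 1.09 times background in all DLD-1 libraries. DIAPH3, an actin nucleator, had 41.5 and 10.7 times background in the DLD-1 controls against 3.16 and 2.01 after auxin. CPQ, a peptidase, had 6.06 and 2.19, then 1.51 and 1.30.

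In HCT116 the question is whether nascent RNA of these genes differs between cells labelled TOP2B-/- and controls, all with degron-tagged TOP2A. Long genes took 2.94% and 2.32% of the counts in the controls against 2.96% and 3.17% in the TOP2B-/- libraries, a difference of 0.434 percentage points with a smallest possible exact permutation p of 0.333. The TOP2B-/- libraries lay above both controls, narrowly so for the nearest pair. After background subtraction the shares were 2.71% and 2.30% against 2.80% and 2.77%. The TOP2B-/- libraries also lay above both controls in the next 2 length classes. Summed CPM were 141272 and 125749 against 146368 and 147320 from 200 to 500 kb. From 100 to 200 kb they were 217954 and 207012 against 221793 and 223153. In each class under 100 kb the TOP2B-/- libraries lay below both controls.

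Of 228 long genes tested, edgeR called 4 higher and 0 lower, a share of 1.75% where 3.41% of all models were called (1.75% higher, 1.66% lower). The count of 0 lower stood beside 5 lower by DESeq2, which called 24 higher, with no share over all models set beside them. An unadjusted edgeR p under 0.05 was found for 33 of the 228 long genes, in either direction. Over all models it was found for 3492 of 15273 tested. The median log2 fold change of the long genes was 1.02 against 0.03 over all models. This did not exceed the spread between replicates, since control 2 differed from control 1 by -2.76 and the TOP2B-/- libraries by 1.02. Against control 1 the TOP2B-/- libraries gave medians of -0.37 and 0.61, and against control 2 of 2.54 and 3.63. The 63 tested genes above background in DLD-1 controls had a median of 0.17, and the 165 others 1.12. The background of DLD-1 was taken from models lowest in the HCT116 controls, so this division is not independent of those controls. Under the same division, models outside the long genes had medians of -0.02 and 0.52. A further set, above background in neither line, was chosen in part by its low HCT116 controls. There the long genes had a median of 1.16 and other models 1.05.

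**Figure D4:**
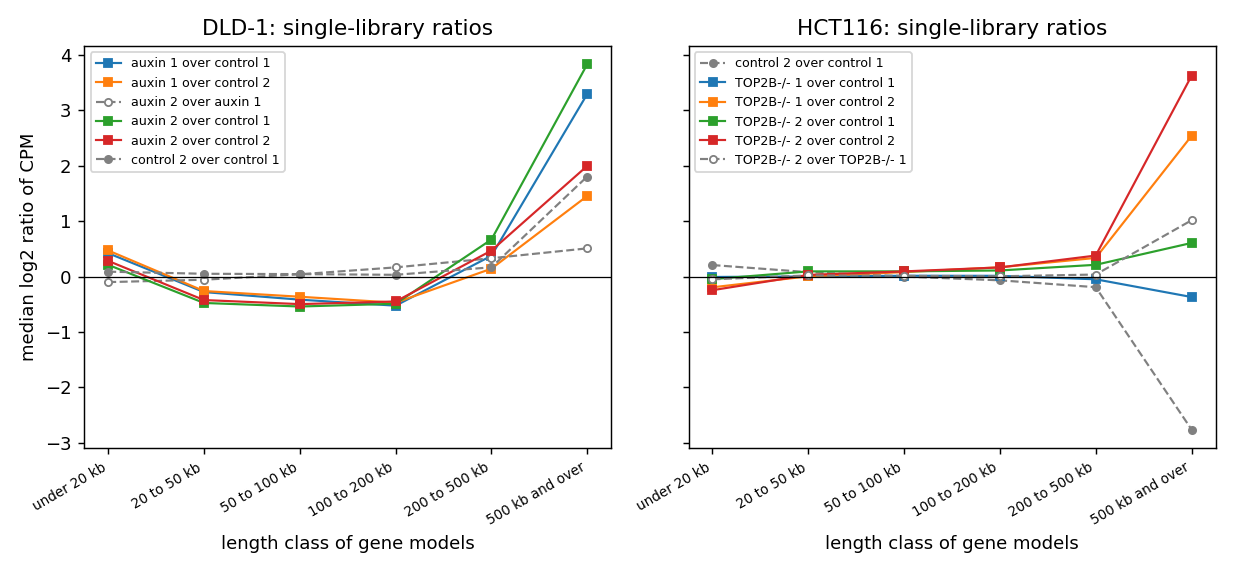
Median log2 ratio of CPM between single libraries by length class, in DLD-1 (left) and HCT116 (right). Solid lines with squares pair a treated or TOP2B-/- library with a control, and dashed grey lines pair replicates. In the genes of 500 kb and over, HCT116 control 2 lies 2.76 below control 1, while the ratios between groups run from -0.37 to 3.63.

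The 4 genes called higher in HCT116 were a phosphodiesterase, a glycosyltransferase, a kinase scaffold and a neuron navigator. PDE4B (chromosome 1, 65792510 to 66374579), whose promoter is shown above, had 0.0651 and 0.0560 RPKM in the controls against 0.143 and 0.165 in the TOP2B-/- libraries, a log2 fold change of 1.32 (SE 0.09, edgeR adjusted p 0.0254). LARGE (chromosome 22, 33273076 to 33920428), which extends sugar chains on dystroglycan, had 0.157 and 0.122 RPKM, then 0.284 and 0.293 (log2 fold change 1.02, SE 0.11, adjusted p 0.0369). KSR2 (chromosome 12, 117453012 to 117968223), a scaffold of the RAF and MEK kinases, had 0.127 and 0.104, then 0.206 and 0.211 (log2 fold change 0.83, SE 0.09, adjusted p 0.0369). In these 3 genes both TOP2B-/- libraries lay above both controls. NAV2 (chromosome 11, 19350724 to 20121601), a cytoskeletal protein of growing neurites, had 0.113 and 0.0933, then 0.162 and 0.174 RPKM, which also did not overlap (log2 fold change 0.68, SE 0.09, adjusted p 0.0486). All 4 were called without control 1 and without control 2, where their log2 fold changes were 1.18 to 1.40 for PDE4B and 0.51 to 0.79 for NAV2. None was called without either TOP2B-/- library, with edgeR adjusted p from 0.182 to 0.313, where the controls alone give the spread. Their log2 fold changes were then 1.24 to 1.36 for PDE4B, 0.98 to 1.02 for LARGE, 0.79 to 0.83 for KSR2 and 0.65 to 0.67 for NAV2. Only PDE4B was called in a fit without chromosome 20.

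C10orf11 was singled out after its values were seen, as the long gene with the largest log2 fold change in HCT116. C10orf11 (chromosome 10, 75431646 to 76557376) had 0.0299 and 0.00964 RPKM in the controls against 0.257 in both TOP2B-/- libraries, that is 1120 and 396 counts against 10033 and 9299. The TOP2B-/- libraries lay above both controls, at 23.4 and 9.68 times background against 1.92 and 4.0. The log2 fold change was 3.69 (SE 0.54) and was not called (edgeR adjusted p 0.0557), and over the alternatives the adjusted p ran from 1.03e-05 with DESeq2 to 0.265 without TOP2B-/- replicate 2. CADPS2, which acts in vesicle priming and was also singled out after its values were seen, had 0.0289 and 0.0129 RPKM in the controls against 0.0696 and 0.0841 in the TOP2B-/- libraries (log2 fold change 1.86, adjusted p 0.102). The highest long genes of HCT116 differed little, with log2 fold changes of 0.17 for LRBA, -0.26 for ZBTB20, 0.0087 for MAGI1, 0.17 for ADK, 0.17 for FAF1 and 0.27 for LPP, none of them called. In DLD-1 after auxin, LARGE fell (-0.96, edgeR adjusted p 0.0236), PDE4B and NAV2 rose in counts (2.53 and 1.66) but stood at 1.02 to 1.21 times background after auxin, against 1.07 for PDE4B and 3.56 and 1.58 for NAV2 in the controls, and KSR2 was not called (0.29, adjusted p 0.215).

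**Figure D5:**
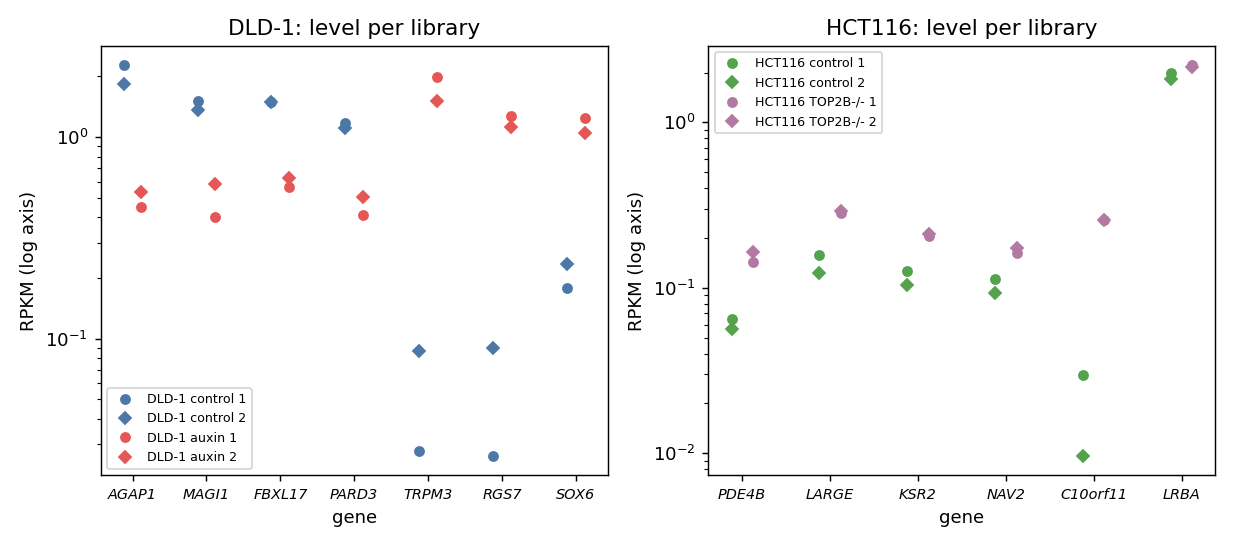
RPKM of selected long genes in each library on a log axis, for DLD-1 (left: control blue, auxin red) and HCT116 (right: control green, TOP2B-/- purple). Circles are replicate 1 and diamonds replicate 2. AGAP1, MAGI1, FBXL17 and PARD3 are lower in both auxin libraries and TRPM3, RGS7 and SOX6 higher, while PDE4B, LARGE, KSR2, NAV2 and C10orf11 are higher in both TOP2B-/- libraries and LRBA is at 1.82 to 2.21.

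At 2 times background in both TOP2B-/- libraries there were 76 long genes (68.5% of all models). Of the 84 above background in HCT116 controls, all 84 were so in TOP2B-/- 1 and 72 (85.7%) in TOP2B-/- 2, whose background was the higher of the pair. The shorter length classes gave 97.5 to 99.7% in TOP2B-/- 1 and 94.8 to 97.5% in TOP2B-/- 2. The median level in controls was 1.64 and 1.82 RPKM under 20 kb and 0.303 and 0.258 in the long genes. Its part in this was not tested.

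Some long genes are counted in ways that limit their values. CACNA1C, a calcium channel gene of 644.7 kb, had 1 to 12 counts in any library, under 0.13 times background, and was tested in neither line. IQCJ-SCHIP1 had 6.94 kb counted of a span of 828.1 kb and was tested in DLD-1 only. PTPRK, a receptor phosphatase, and KIF26B, a kinesin, had 0.417 and 0.178 and 0.297 and 0.275 times background after auxin, below what background alone gives over their counted length. In 66 of the 230 fewer bases were counted than the gene spans, and in 3 of these under 90%. Another gene model overlapped 19 of them, in each case on the opposite strand.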

How the data were processed

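Nascent RNA of 8 libraries was compared within each cell line, with groups taken from the labels. The authors deposited raw read counts per RefSeq gene model, 1 table per line. The labels' processing notes name STAR, DESeq2 and hg38, without versions, and the strand setting of the counting is not stated there. Counts cover introns, so a long gene gathers background reads in proportion to its length. The authors' tables of changed genes, which hold log2 fold changes, p-values and normalized values, were not used. The paper given for reading covers a different experiment and was used for style only.

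The long genes and the role lists were chosen with earlier results of these data known. Genes named were, per comparison, the 6 largest called rises and falls, the 6 highest genes in the controls of each line, the 2 highest per role list, the 3 longest and the 2 nearest the length limit on each side. Others are marked where they appear.

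Each line was fitted on its own 4 libraries with edgeR 4.0.16 in R 4.3.3 (quasi-likelihood test, filterByExpr, TMM, two-sided p adjusted by Benjamini-Hochberg over all tested models, threshold 0.05, 2 residual degrees of freedom). The script was tested on simulated data. Background density was the median of reads per counted base over the 20% of models of at least 5000 bp that were lowest in the controls of the other line, within each chromosome, without chromosome Y. Background-subtracted counts were counts less this density times counted length, with a floor of 0. GC content was read over the GRCh37 span of each symbol (230 of 230 long genes). Alternatives were DESeq2 1.42.0, library totals, other count filters, each library left out, the replicate number as a block, background subtraction, a fit without chromosome 20, and length limits of 400 and 750 kb. A crossed block in HCT116, a limit of 3 times background and each auxin library alone for the share that stayed above background, were added after seeing the data.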

Additional observations from a re-analysis of the deposited data

How the results depend on the processing

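In DLD-1 the number of long genes called, 211 of 229, was 11 to 206 with a library left out, lowest without auxin 1. It was 339 at a length of at least 400 kb and 92 at 750 kb. No share over all models was set beside the numbers of these alternatives. The median log2 fold change, 2.41, was 1.75 to 3.59 with a library left out. The gain in share of reads, 5.43 percentage points, was 0.312 with background-subtracted counts. The share of long genes that stayed above background, 1.56%, was 0 at 3 times background and 1.56 to 18.8% with either auxin library alone.

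In HCT116 the number called, 4, was 29 with DESeq2, 27 with background-subtracted counts, 1 without chromosome 20, 11 at 400 kb and 1 at 750 kb. It was 0 to 158 with a library left out, highest without control 1 (155 higher), 11 without control 2, and 0 by edgeR without either TOP2B-/- library (15 and 22 at an unadjusted p under 0.05). The median, 1.02, was 0.12 to 3.11 with a library left out, highest without control 1. Replicates share only a number, with 2 pairs per line. The differences of same-numbered libraries correlated at 0.56 in DLD-1 and -0.82 in HCT116, and with the replicate block 0 long genes were called in HCT116 by edgeR, with 36 at an unadjusted p under 0.05. With the pairing crossed, 25 were called. With background-subtracted counts 24 of the 191 long genes tested were higher and 3 lower. Beside these, 1165 of all 13577 models tested were higher and 1144 lower. For the other alternatives no share over all models was set beside the long genes.

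Log2 fold changes of 9 named genes in HCT116 changed sign, from 0.60 for SPOCK1 and 1.04 for SEMA5A with all 4 libraries. With a library left out they ran from -0.027 to 1.5 for SPOCK1, -0.058 to 0.13 for AGAP1, -0.15 to 0.099 for MAGI1, -0.17 to 0.023 for PARD3, -0.0019 to 5.83 for SEMA5A, -0.22 to 0.026 for GRID1, -0.64 to 0.046 for FGF12, -0.061 to 0.23 for SMYD3 and -0.091 to 0.19 for RAD51B. MAGI1 was -0.0055 with DESeq2. The cause was not tested. Among named genes, 695 values under alternatives kept direction and side of the threshold, 82 kept direction and lost the call, 42 gained it and 13 changed sign. Depth after auxin, with 39.4% and 59.2% of counts at background density, limits which falls could be sized.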
